A study of Mus musculus with 20 samples.

Results

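Cytosolic ribosomal proteins are the protein parts of the ribosome, the machine that translates messenger RNA in the cytosol. Their genes were followed across 20 RNA libraries of cultured mouse kidney myofibroblasts. Members were chosen by symbol (names beginning Rpl or Rps that denote ribosomal proteins, with Rplp0, Rplp1, Rplp2 and Rpsa) and by a mean level of at least 10 CPM (a gene's share of the library's total counts, scaled to 1000000) over all libraries. This gave 79 of 51826 genes in the table, of which 47 encode proteins of the large subunit and 32 of the small subunit. The mean level was the measured value that chose them, and it used no contrast between groups.

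Myofibroblasts are contractile, matrix-producing cells that accumulate in fibrotic kidney, and they were grown out of pieces of mouse kidney on the C57BL/6J background. The cells came from wild-type (WT) mice or from WWP2 knockout mice (WWP2-/-, labelled KO in the deposit). WWP2 is an E3 ubiquitin ligase, which attaches ubiquitin to other proteins. The study reports that its full-length and N isoforms are missing from WWP2-/- cells. Cells of each genotype were untreated or treated with TGFb1, a cytokine that activates myofibroblasts, with 5 libraries in each of the 4 groups. The labels give no age or sex, and the dose and duration of TGFb1 are given by the study but not by the labels. The study describes a data point in general as a mouse or the cells of a mouse, but the labels do not tie libraries to animals, so p-values measure the spread between these libraries.

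Ribosomal proteins assemble with ribosomal RNA in the nucleolus, and each is needed in about the same amount as the others. Their messenger RNAs commonly begin with a C followed by a run of pyrimidines, the 5′ terminal oligopyrimidine (TOP) tract, through which translation is adjusted to growth signals by the kinase mTORC1. Some have a paralog, a second gene for a related protein, such as Rpl22l1 beside Rpl22, Rps27l beside Rps27 and Rpl7l1 beside Rpl7.

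Sequence around the start of transcription was taken from RefSeq on GRCm38.p6, whose windows run from 250 bases before to 50 bases from each annotated start. An entry was found for 59 of the 79 members, with 70 annotated starts. The 30 bases around the start are shown for 9 genes, because they include the 3 paralogs compared with a parent gene, the parents with an entry, Rps19, which follows Rpl22l1 in the comparisons, and 3 other genes with a clear pyrimidine run. The first 10 bases lie before the annotated start, and capitals mark the longest run of at least 5 pyrimidines that begins with C within 5 bases of it. Where a gene has several starts the one with the longest run is given, and otherwise the first listed.
Rps27 (chr3:90213629-90213658, minus strand): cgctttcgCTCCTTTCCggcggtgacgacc
Rps26 (chr10:128626487-128626516, minus strand): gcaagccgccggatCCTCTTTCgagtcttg
Rps15a (chr7:118116128-118116157, minus strand): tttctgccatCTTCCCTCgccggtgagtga
Rpl35a (chr16:33056472-33056501, plus strand): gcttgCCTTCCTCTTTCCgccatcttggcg
Rps27l (chr9:66946076-66946105, plus strand): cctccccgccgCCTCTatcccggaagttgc
Rpl22l1 (chr3:28805498-28805527, plus strand): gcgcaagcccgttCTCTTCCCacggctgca
Rps19 (chr7:24884582-24884611, plus strand): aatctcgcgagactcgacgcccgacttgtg
Rpl22 (chr4:152325716-152325745, plus strand): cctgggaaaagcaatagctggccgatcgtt
Rpl7l1 (chr17:46782637-46782666, minus strand): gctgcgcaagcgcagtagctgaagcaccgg

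A run of this kind began exactly at 13 of the 70 annotated starts (18.6%, in 13 genes), against 2.51% of 32851 starts of all genes. Within 5 bases of the start the shares were 44.3% and 18.3%. The windows shown for Rps19, Rpl22 and Rpl7l1 held no such run. An annotated start can lie a few bases from the one used in these cells, which was not measured here.

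Other short motifs were searched on both strands of the 300-base windows. CCGGAAG, the core recognised by ETS factors such as GABPA, stood in 37.1% of the members' windows (25 genes) against 8.86% of all windows. AAGATGGC, the core of the YY1 motif, stood in 11.4% against 2.75%. TATAAA stood in 10% against 13.6%. These are matches of letters and were not tested as binding sites.

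Before the results, some libraries and markers need to be described. Totals were between 47520759 and 73063697 counts. Wwp2 itself was at 46.7 to 61.6 CPM in WT libraries and 15.5 to 24.0 CPM in WWP2-/- libraries, and it was called lower in both treatment states (log2 fold change -1.37 untreated and -1.49 with TGFb1). The smooth muscle actin gene Acta2, the defining marker of myofibroblasts, was at 39.7 CPM in WWP2-/- untreated replicate 3 and 49.0 CPM in WWP2-/- TGFb1 replicate 1, whereas all other libraries had at least 945 CPM. Xist, transcribed from the inactive X chromosome of female cells, was above 1 CPM in 11 of the 20 libraries, 4 in each WT group, 2 in the WWP2-/- untreated group and 1 in the WWP2-/- TGFb1 group, so that every group held libraries with and without it. Both Acta2-low libraries had Xist, at 297 CPM in WWP2-/- untreated replicate 3 and 218 CPM in WWP2-/- TGFb1 replicate 1. The remaining WWP2-/- library with Xist, untreated replicate 1, had 35.5 CPM of it and Acta2 at 2107 CPM. In WWP2-/- cells with TGFb1, Xist and low Acta2 therefore cannot be told apart. The summed level of 8 macrophage markers ran from 54.3 to 4280 CPM over the libraries.

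The 79 genes together took between 2.38% and 5.99% of a library's counts. In untreated WT cells the share was 3.84%, 4.63%, 4.89%, 2.98% and 4.05% in replicates 1 to 5. In WT cells with TGFb1 it was 2.99%, 3.22%, 2.54%, 5.99% and 3.25%, so that replicate 4 stood far above the other four. Untreated WWP2-/- libraries had 2.91%, 3.22%, 3.64%, 3.18% and 2.61%. WWP2-/- libraries with TGFb1 had 4.01%, 2.38%, 2.58%, 3.52% and 3.09%. All groups overlapped. In bulk RNA, fewer cells of a type and less of this RNA per cell cannot be told apart.

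**Figure D1:**
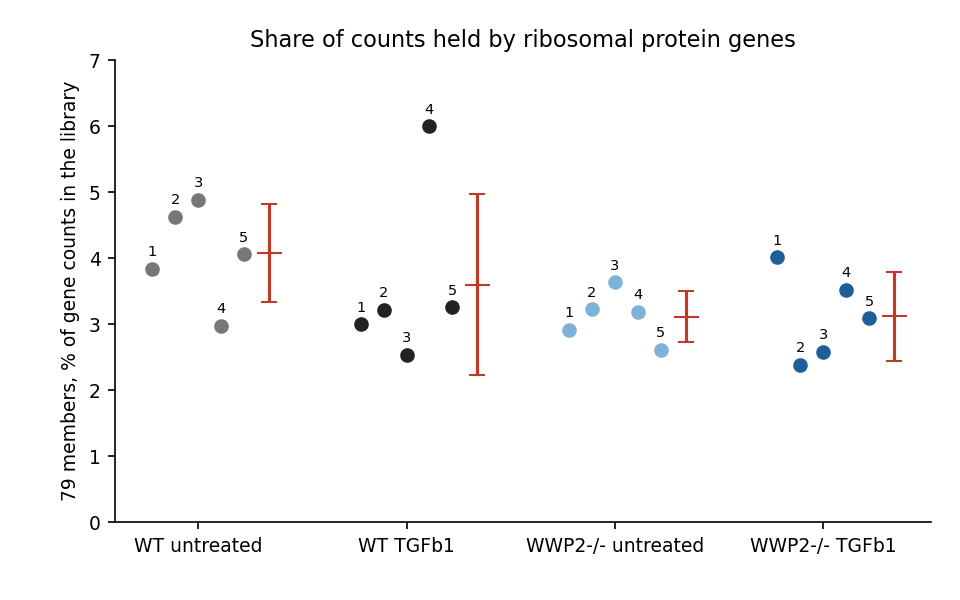
Share of all gene counts held by the 79 ribosomal protein genes (y axis, percent) in each library, by group (x axis); numbers are replicates, and the red bar gives the mean and SD of 5 libraries. WT TGFb1 replicate 4 lies at 5.99%, and the other 4 libraries of its group lie between 2.54% and 3.25%.

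The group means were 4.08% ± 0.746 (SD, n = 5) in untreated WT, 3.60% ± 1.37 in WT with TGFb1, 3.11% ± 0.382 in untreated WWP2-/- and 3.12% ± 0.670 in WWP2-/- with TGFb1. Untreated, WWP2-/- cells were 0.963 percentage points below WT, and between 0.760 and 1.24 points below when any one library was left out. With TGFb1 they were 0.482 points below WT, but 0.117 points above without WT TGFb1 replicate 4. The difference with TGFb1 thus rested on 1 library.

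The share also moved with Xist. Libraries with Xist above 1 CPM had a median share of 3.84% (2.91% to 5.99%, 11 libraries), and those below had 2.98% (2.38% to 3.52%, 9 libraries). Among untreated libraries with Xist, the 4 WT libraries had 3.84% to 4.89% and the 2 WWP2-/- libraries 2.91% and 3.64%, the latter in the Acta2-low library. Of the untreated libraries that lacked Xist, the single WT one had 2.98% and the 3 from WWP2-/- cells 2.61% to 3.22%. With TGFb1, the 4 WT libraries with Xist had 2.99% to 5.99% and the WWP2-/- library, which is the Acta2-low one, 4.01%. Without Xist, the WT library with TGFb1 had 2.54% and the 4 WWP2-/- libraries 2.38% to 3.52%. The part of Xist status in the genotype difference was not tested on the share, and a fit with Xist as a covariate is given with the tests. Because the Acta2-low libraries carry Xist, that fit cannot fully separate Xist from low Acta2 in WWP2-/- cells.

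Both subunits kept a near constant proportion. Small subunit genes held between 39.7% and 41.8% of the members' counts in each of the 20 libraries. The 4 members on the X chromosome (Rpl10, Rpl36a, Rpl39 and Rps4x) held between 4.81% and 6.27%. Annotated pseudogenes of ribosomal proteins, 282 in the table, took at most 0.0203% of a library's counts. Reads that fit both a gene and its pseudogene may have been left out or assigned to either, because the handling of such reads is not given in the sources used here.

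Levels of single members were compared per length of exon, as CPM per kb over the union of a gene's exons. Rplp1 (1472 CPM per kb) and Rplp0 (917), proteins of the stalk of the large subunit, which recruits translation factors, were highest, whereas Rplp2, the remaining stalk protein, was at 163. Rps3a1 (713), Rps15 (649) and Rpl19 (629), all structural proteins, came next. At the low end stood Rpl13a (21.6), Rpl22l1 (22.6), Rpl7l1 (27.5), Rps15a (52.7) and Rpl35a (57.3). The union of exons counts long, rarely used transcript models, and with the longest transcript in its place 3 of the 5 highest were the same.

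**Figure D2:**
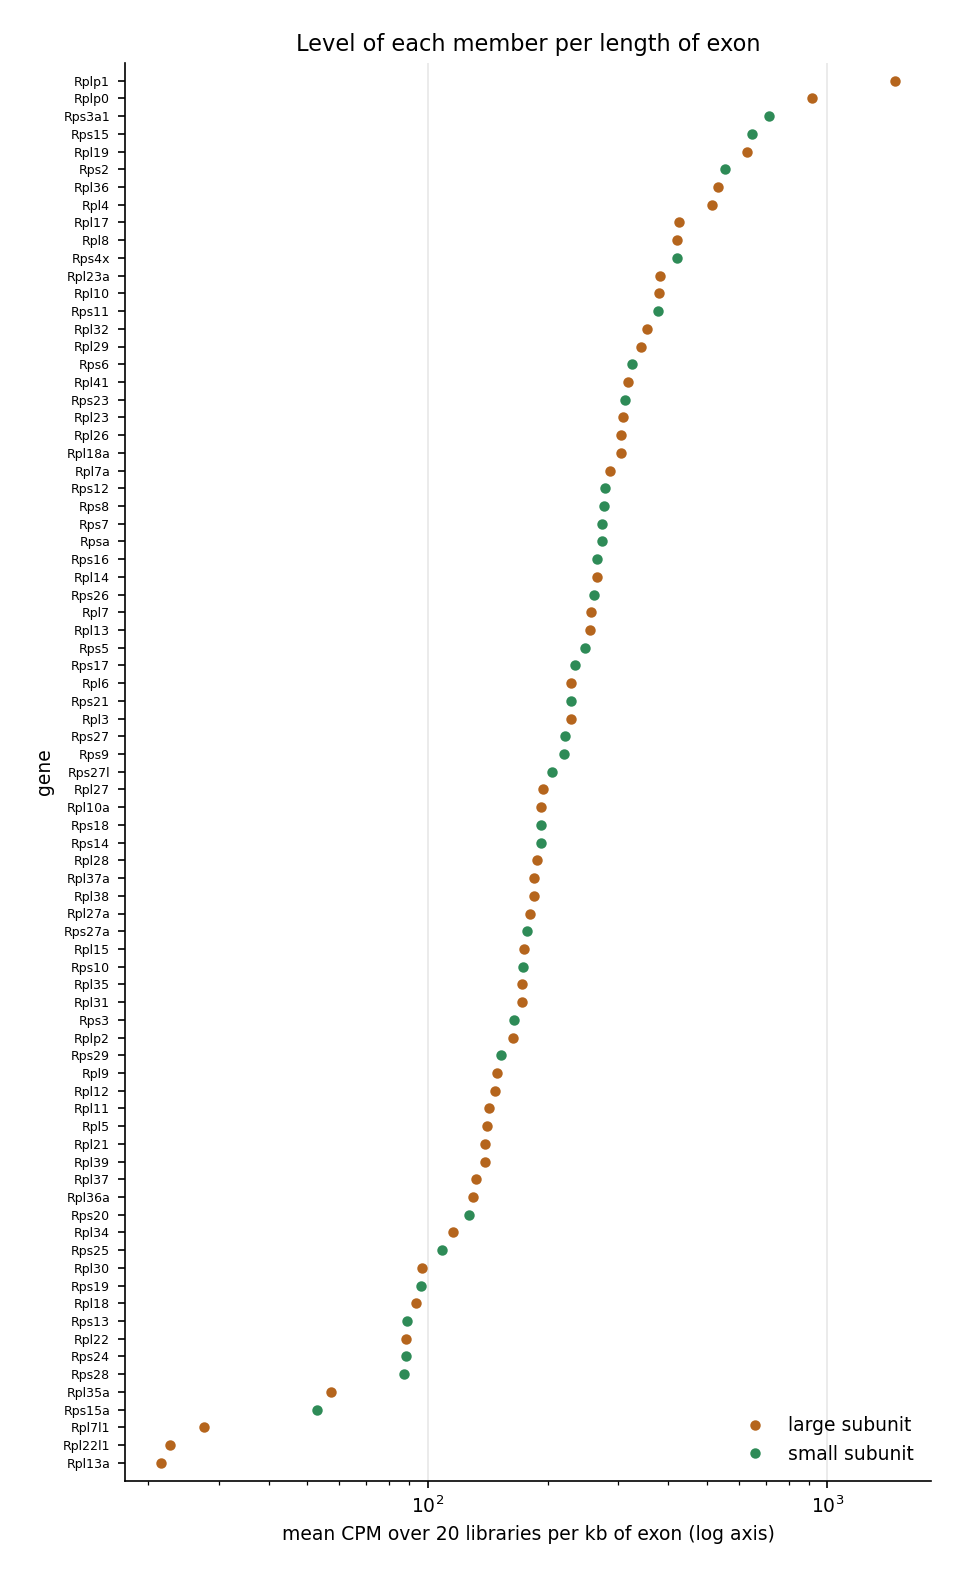
Mean level over 20 libraries per kb of exon (x axis, log scale) of each of the 79 members (y axis), coloured by subunit. Rplp1 is highest at 1472 CPM per kb, and Rpl13a, Rpl22l1 and Rpl7l1 lie below 30, apart from the others.

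Nearest inside the threshold of 10 CPM were Rpl22l1 (45.0 CPM), Rpl13a (45.6), Rpl7l1 (96.1) and Rpl38 (99.7). Of 83 candidates, 4 fell outside it. These were Rpl24 (0.759 CPM), a core large subunit protein, and the paralogs Rpl3l (0.0777), Rpl39l (0.0469) and Rpl10l (0.00343), whose known expression is largely in muscle or testis. Rpl24 shares 47.0% of its exon bases on the same strand with the annotated gene Gm28037, and Rpl13a shares 35.4% with Gm45713, and both of those were listed at 0 in the libraries. Their low levels were therefore uncertain, and the part of the overlap in them was not tested.

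All 79 members had at least 10 counts in every library, the lowest being 910, and all passed the filter for testing. The fold between a member's highest and lowest library was between 1.80 and 4.46, with a median of 2.63. Of the 79, 78 were highest in WT TGFb1 replicate 4. The exception was Rpl7l1, which was highest in WWP2-/- TGFb1 replicate 1. In all, 46 were lowest in WWP2-/- TGFb1 replicate 2 and 18 in WT TGFb1 replicate 3.

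The members rose and fell together from library to library. Within groups, the SD of a member's log2 CPM had a median of 0.35, against 0.27 for the 9728 tested genes with a mean of at least 10 CPM. Measured relative to the other members of the same library, the median SD was 0.10, and it was lower than before in 77 of 79 genes. For 77 mitochondrial ribosomal proteins, which build the separate ribosome of mitochondria, the same step took the median SD from 0.25 to 0.14. These are descriptions over genes that share libraries.

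**Figure D3:**
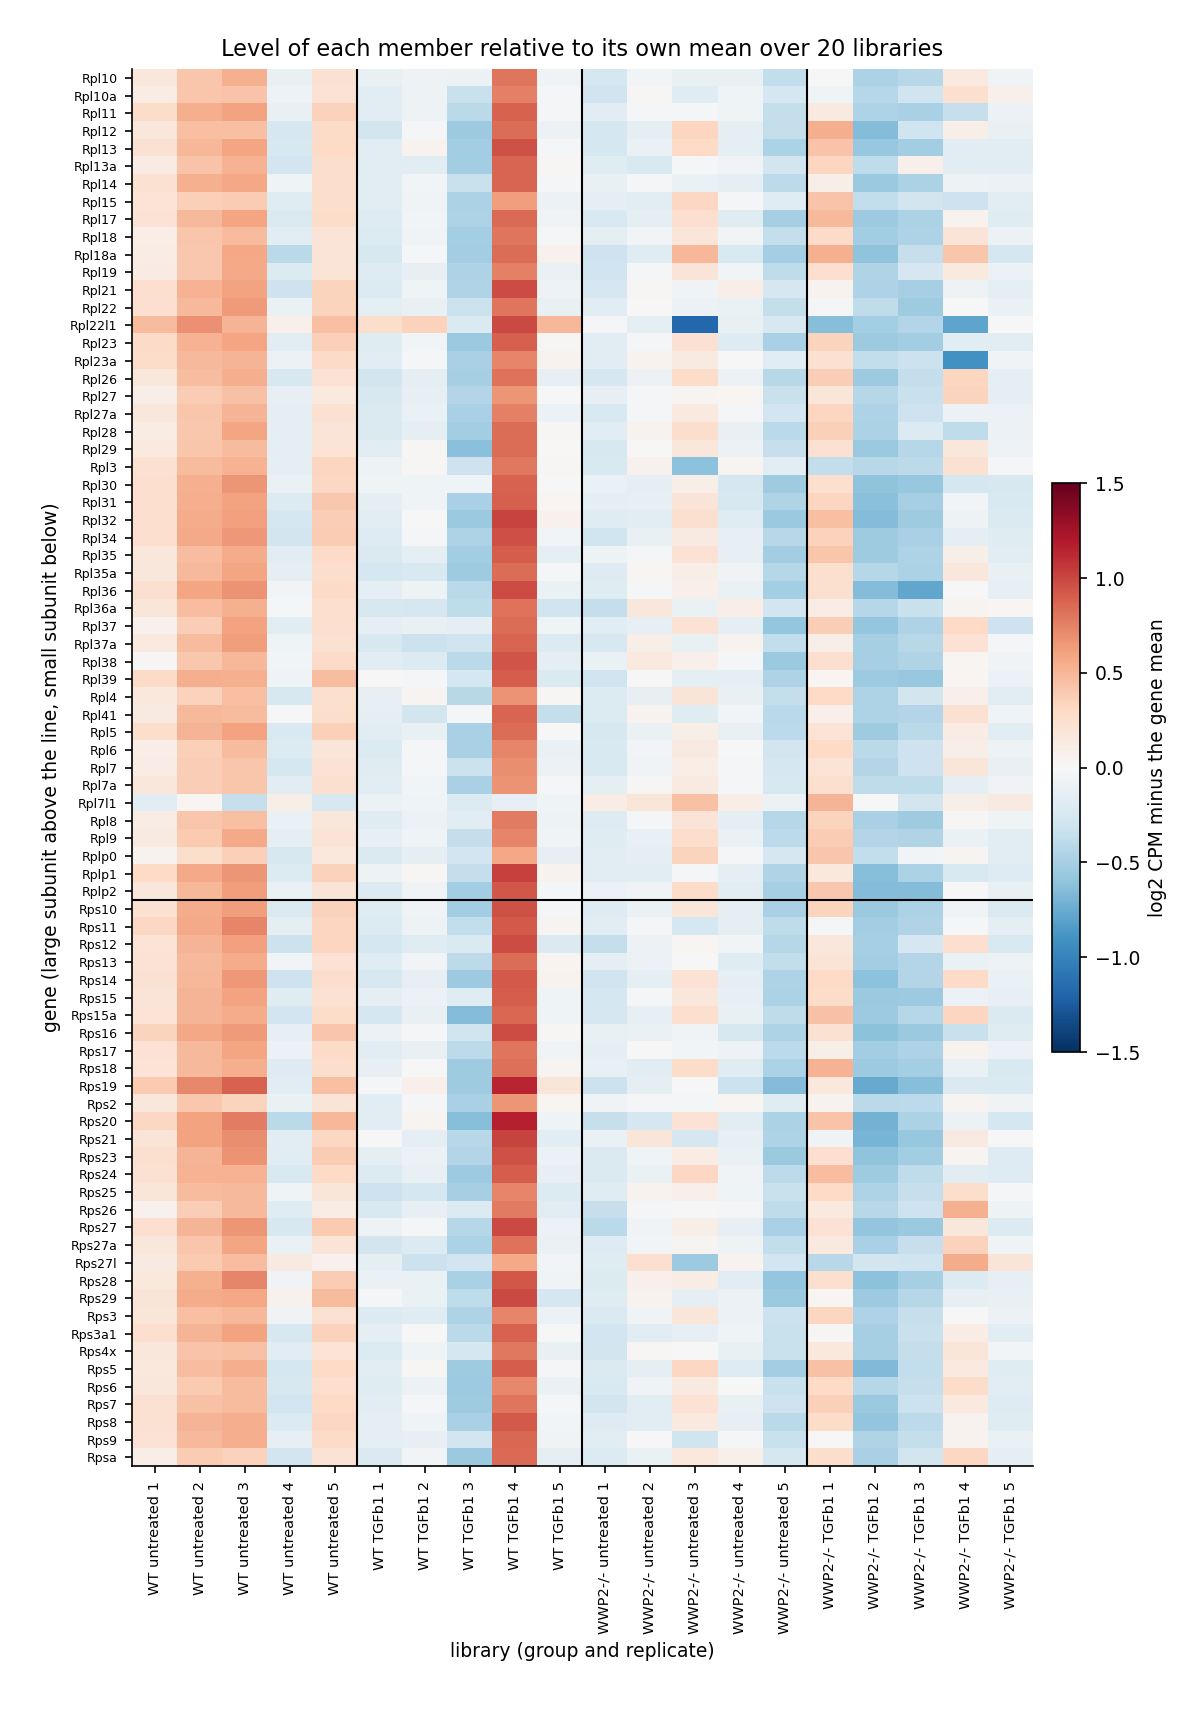
Level of each of the 79 members (rows) in each of the 20 libraries (columns), as log2 CPM minus the gene's own mean over the libraries (colour scale in log2 units). Nearly every row is red in WT TGFb1 replicate 4. Most rows are blue in WWP2-/- TGFb1 replicates 2 and 3, in WT TGFb1 replicate 3 and in WWP2-/- untreated replicate 5. The rows of Rpl22l1, Rps27l, Rpl7l1, Rpl3 and Rpl23a depart most from the common pattern.

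The largest SDs relative to the other members belonged to Rpl22l1 (0.40), Rpl7l1 (0.33), Rps27l (0.31), Rpl3 (0.25) and Rpl23a (0.24). Rpl22l1, Rpl7l1 and Rps27l are the paralogs. Rpl3, which lies close to the catalytic centre of the ribosome, was at 458 CPM in WWP2-/- untreated replicate 3, the lower of the Acta2-low libraries, and at 602 to 733 CPM in the other libraries of that group. Rpl23a, at the exit of the nascent chain tunnel, was at 166 CPM in WWP2-/- TGFb1 replicate 4 and at 241 to 366 CPM in the rest of its group.

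The first comparison asks whether loss of WWP2 changes the members in cells treated with TGFb1. One member, Rpl22l1, fell, and the other 78 did not pass the test. Its levels were 50.8, 53.8, 36.4, 83.5 and 59.8 CPM in WT replicates 1 to 5 (mean 56.8 ± 17.2, SD) and 27, 29.5, 31.2, 24.3 and 42.0 CPM in WWP2-/- (mean 30.8 ± 6.78). The groups overlapped only through WT replicate 3 and WWP2-/- replicate 5. By edgeR's quasi-likelihood test the log2 fold change was -1.03 (SE 0.24, 95% interval -1.53 to -0.54, adjusted p = 0.0178). Rpl22l1 encodes a paralog of Rpl22 that can take its place in the large subunit. Among libraries with Xist, Rpl22l1 was at 50.8 to 83.5 CPM in WT and 27 CPM in the WWP2-/- library, which is the Acta2-low one. Among those without Xist it was at 36.4 CPM in the WT library and 24.3 to 42.0 CPM in WWP2-/-. With Xist as a covariate the log2 fold change was -0.94 (adjusted p = 0.0679), without WT TGFb1 replicate 4 it was -0.84 (adjusted p = 0.0533), and without WWP2-/- TGFb1 replicate 4 it was -0.95 (adjusted p = 0.0516).

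Over all genes tested 6.07% were called, 3.96% lower and 2.1% higher, so 1 of 79 members (1.27%) lay below the background. Next in order of p were Rps19 and Rpl30. Rps19, a small subunit protein whose mutation causes Diamond-Blackfan anaemia, was at 514 ± 245 CPM in WT and 344 ± 88.4 CPM in WWP2-/- (log2 fold change -0.73, SE 0.29, adjusted p = 0.130). Rpl30 was at 322 ± 110 CPM in WT and 237 ± 60.5 CPM in WWP2-/- (-0.58, SE 0.23, adjusted p = 0.132). Neither passed, and WT and WWP2-/- libraries overlapped for both. In all, 12 members had an unadjusted p below 0.05 (15.2%), each with the lower level in WWP2-/-, against 24.7% of all genes in either direction and 11.7% lower. No member had groups without overlap, against 2.44% of all genes with WWP2-/- lower and 3.1% with WWP2-/- higher.

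The direction was nearly uniform while the size was small. The log2 fold change was below 0 for 78 of 79 members, against 44.8% of all genes tested, and the exception was Rpl7l1 (0.09). The median was -0.34 for the members (-0.34 large subunit, -0.38 small subunit) and 0.05 for all genes. Genes that vary together take one direction together, so that these 79 are not independent observations. Without WT TGFb1 replicate 4 the median was -0.085 with 57 of 79 below 0, and with Xist as a covariate it was -0.03 with 49 of 79 below 0. At the other end, Rplp0 had a log2 fold change of -0.13 with a 95% interval of -0.59 to 0.33.

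Fold changes were set beside the pyrimidine run as a description, without a test. The median with TGFb1 was -0.36 over the 13 members with a run at an annotated start and -0.33 over the other 46 with an entry, and -0.43 over the 20 members without an entry, whose start is unknown here. Untreated, the same medians were -0.46, -0.46 and -0.51.

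The second comparison asks the same in untreated cells. No member was called by edgeR's quasi-likelihood test, against 0.725% of all genes (0.622% lower). At an unadjusted p below 0.05 there were 28 members (35.4%), all with the lower level in WWP2-/-, against 14.9% of all genes in either direction and 6.84% lower. The Wald test of DESeq2 called 1 member, Rpl22l1 (adjusted p = 0.0326), where it called 747 of the 20407 genes tested. Again 78 of 79 members had a log2 fold change below 0, against 42.0% of all genes, with a median of -0.47 against 0.08. With Xist as a covariate the median was -0.218 with 78 of 79 below 0. Rpl7l1 was again the exception (0.22, 95% interval -0.05 to 0.49).

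Rpl22l1 had the lowest p also here. It was at 58.5, 67.9, 59.9, 44.4 and 57.8 CPM in untreated WT and at 41.3, 38.0, 18.7, 39.0 and 35.8 CPM in untreated WWP2-/-, and the groups did not overlap (log2 fold change -0.81, SE 0.24, edgeR adjusted p = 0.121). Libraries with Xist had 57.8 to 67.9 CPM in WT and 41.3 and 18.7 CPM in WWP2-/-, the latter Acta2-low. Those without Xist had 44.4 CPM in WT and 35.8 to 39.0 CPM in WWP2-/-. With Xist as a covariate the log2 fold change was -0.74 (edgeR adjusted p = 0.149). Groups did not overlap for 2 members, both lower in WWP2-/-, against 0.98% of all genes in that direction and 1.84% in the other. The second was Rps29, named because the count is so low, a small zinc-binding protein of the small subunit, with 106 to 152 CPM in WT and 69.1 to 105 CPM in WWP2-/- (-0.63, adjusted p = 0.228). Rps19 was at 598 ± 153 CPM in WT and 350 ± 56.5 CPM in WWP2-/- (-0.86, SE 0.29, adjusted p = 0.185), with WT replicate 4 at 379.5 CPM inside the WWP2-/- range of 269 to 421 CPM. Rpl39, a very short protein of the exit tunnel encoded on the X chromosome, was at 249 ± 40.6 CPM and 168 ± 20.4 CPM (-0.65, adjusted p = 0.189).

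**Figure D4:**
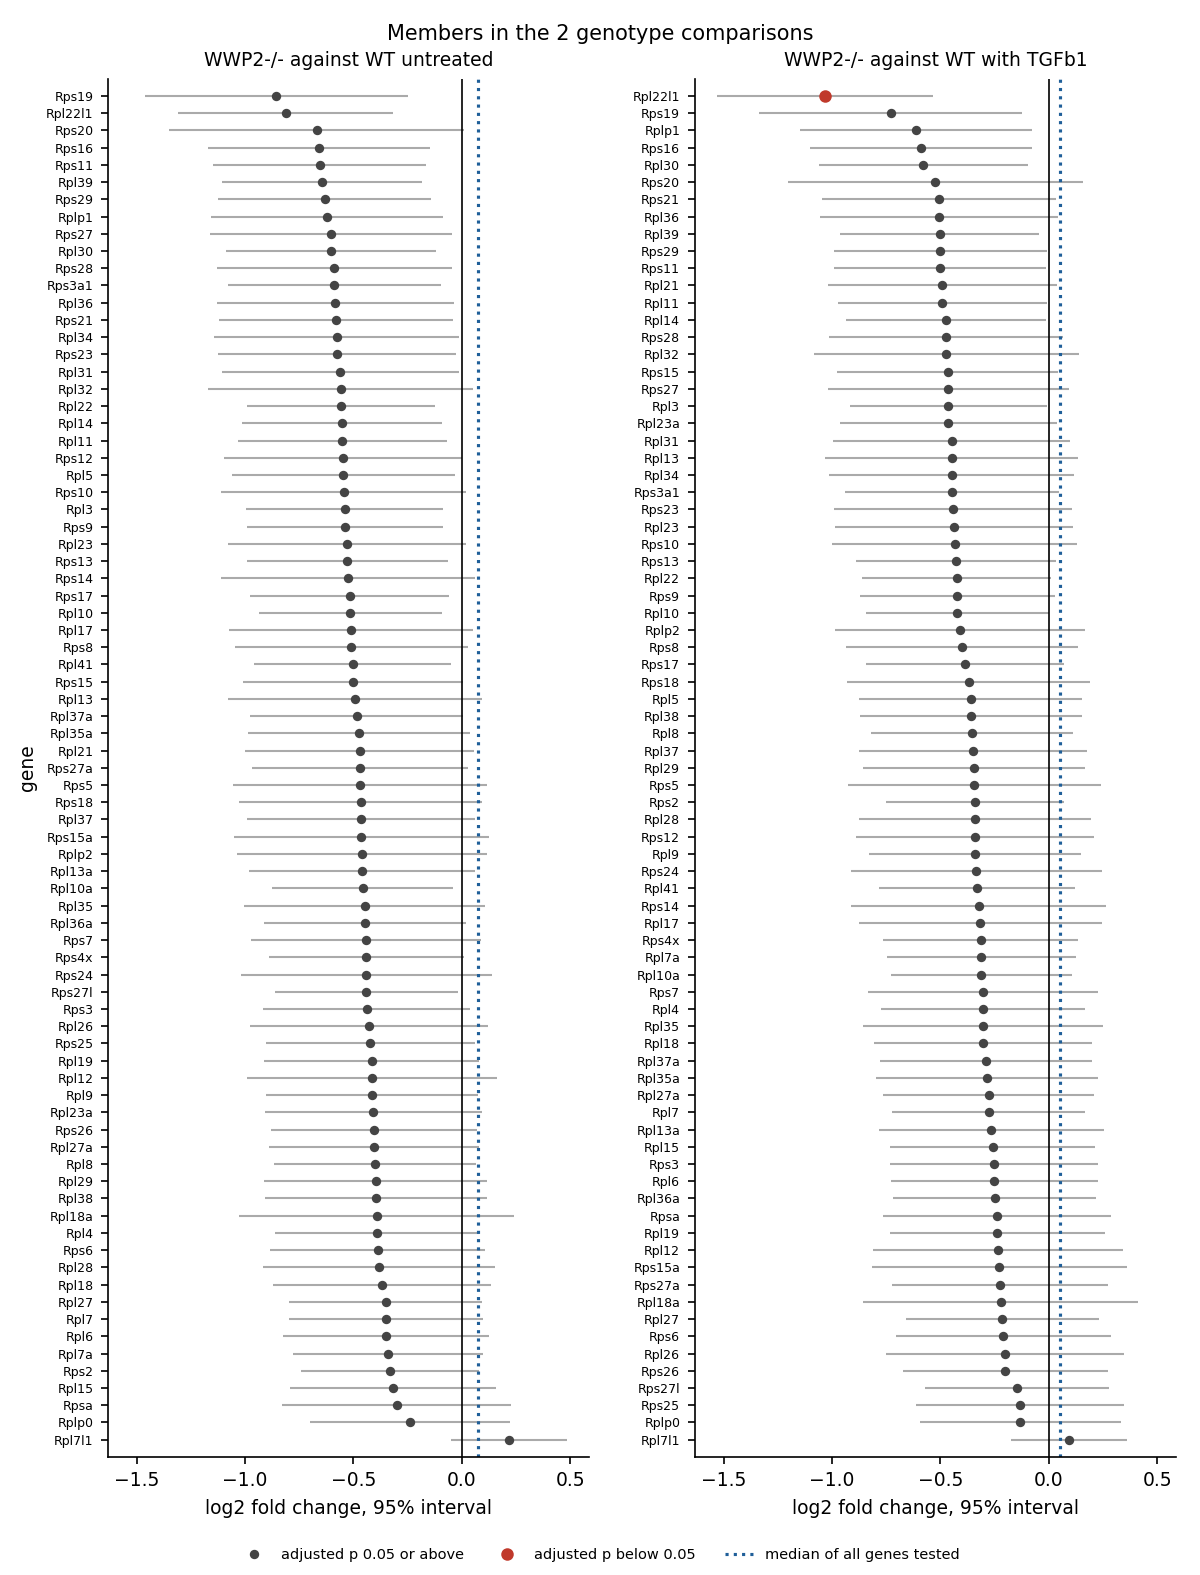
Log2 fold change of WWP2-/- against WT (x axis) with its 95% interval for each of the 79 members (y axis), untreated at left and with TGFb1 at right. The dotted line marks the median of all genes tested (0.08 and 0.05), and the red point is Rpl22l1 with TGFb1, the one member with an adjusted p below 0.05.

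No member passed the test for TGFb1 in either genotype, and the direction of the median depended on single libraries. In WT cells no member and no gene was called by edgeR's quasi-likelihood test (0.0% of all genes), and no member had an unadjusted p below 0.05, against 1397 of all genes (6.85%, and 4.18% lower). DESeq2 called 27 genes and no member. The median log2 fold change of the members was -0.08, between -0.19 and 0.12 for single members, with 76 of 79 below 0 against 47.3% of all genes. Leaving out WT TGFb1 replicate 4 gave -0.389 and leaving out WT untreated replicate 4 gave -0.198. The median turned to 0.0579 (12 of 79 below 0) without WT TGFb1 replicate 3 and to 0.0276 (25 of 79) without WT untreated replicate 3, and it was -0.00787 (44 of 79) without WT TGFb1 replicate 1. The lowest p belonged to Rpl7l1 (0.12, 95% interval -0.15 to 0.39), Rps25 (-0.19, interval -0.67 to 0.29), a protein needed for some internal ribosome entry sites, and Rpl36a (-0.18, interval -0.64 to 0.29). All 3 intervals include 0.

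In WWP2-/- cells edgeR again called no gene with TGFb1 (0.0%), and no member had an unadjusted p below 0.05, against 713 of all genes (3.49%, and 2.45% lower). DESeq2 called 44 genes and no member. The median of the members was 0.03, with 22 of 79 below 0 against 49.8% of all genes. It turned to -0.0898 (68 of 79 below 0) without WWP2-/- TGFb1 replicate 1, the Acta2-low library, and to -0.0189 (47 of 79) without WWP2-/- untreated replicate 5. Lowest in p were Rps26 (0.19, interval -0.28 to 0.67), which lies at the messenger RNA exit, Rps27l (0.15, interval -0.27 to 0.57) and Rpl23a (-0.17, interval -0.67 to 0.33). The interaction of genotype and TGFb1 was called for no gene by edgeR (0.0%), with 1424 genes (6.98%, and 3.33% lower) and no member at an unadjusted p below 0.05, and DESeq2 called 10 genes and no member. Its median over the members was 0.12, with 5 of 79 below 0 against 52.2% of all genes. It was 0.441 without WT TGFb1 replicate 4, and it turned to -0.0263 (47 of 79 below 0) without WT TGFb1 replicate 3 and to -0.0134 (46 of 79) without WWP2-/- TGFb1 replicate 1. Rps27l had the lowest p (0.29, interval -0.31 to 0.89), followed by Rps25 (0.29) and Rps27a (0.25), which encodes a fusion with ubiquitin. The comparisons share libraries, so their values are set side by side only.

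Paralogs were then compared with their parent genes within each library, as a ratio of counts, which does not depend on the library's total. These ratio tests were chosen after the data were seen, and 12 were made in all. With TGFb1, the ratio of Rpl22l1 to Rpl22 was 0.225, 0.232, 0.183, 0.192 and 0.259 in WT and 0.111, 0.154, 0.181, 0.0976 and 0.180 in WWP2-/-. All 5 WWP2-/- libraries lay below all 5 WT libraries, with means of 0.145 ± 0.0387 and 0.218 ± 0.0309 (log2 difference -0.63). The exact two-sided permutation test gave p = 0.00794, the smallest value that 252 arrangements allow, and p = 0.0952 after adjustment over the 12 tests. Leaving out any one library gave log2 differences between -0.72 and -0.50. The parent Rpl22 was at 264 ± 95.8 CPM in WT and 218 ± 33.9 CPM in WWP2-/- (-0.42, edgeR adjusted p = 0.213). The 2 genes could share reads only where their sequences agree, which was not tested.

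Untreated, the ratio of Rpl22l1 to Rpl22 was 0.184 ± 0.0173 in WT and 0.154 ± 0.0435 in WWP2-/- (log2 difference -0.32, exact permutation p = 0.159, adjusted 0.381). Most of it came from WWP2-/- untreated replicate 3, at 0.0799, and without that library the log2 difference was -0.10. The ratio of Rpl7l1, a paralog of Rpl7 that acts in ribosome assembly, to Rpl7 was 0.119 ± 0.0367 in untreated WT and 0.167 ± 0.0110 in untreated WWP2-/- (log2 difference 0.54, exact permutation p = 0.0476, adjusted 0.286). With TGFb1 it was 0.133 ± 0.0303 and 0.162 ± 0.0231 (exact permutation p = 0.119, adjusted 0.357). Neither difference passed after adjustment.

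Rps27l, a paralog of Rps27 induced by p53, showed no genotype difference that passed, with exact permutation p = 0.587 untreated and p = 0.254 with TGFb1. Its ratio to Rps27 set the Acta2-low libraries apart within WWP2-/- cells. It was 0.478 in untreated replicate 3 and 0.475 in TGFb1 replicate 1, whereas the other 8 WWP2-/- libraries lay between 0.829 and 0.972. Both Acta2-low libraries also had Xist, while WWP2-/- untreated replicate 1, with Xist at 35.5 CPM, was at 0.864. All WT libraries had Acta2 at 945 CPM or more. Their ratio was 0.960 and 0.813 without Xist (untreated replicate 4 and TGFb1 replicate 3) and 0.552 to 0.759 with Xist. The parts of Xist and of low Acta2 in this ratio were not tested. Rpl22l1 over Rpl22 was also low in these libraries, at 0.0799 and 0.111, but the lowest value with TGFb1 was 0.0976 in replicate 4.

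**Figure D5:**
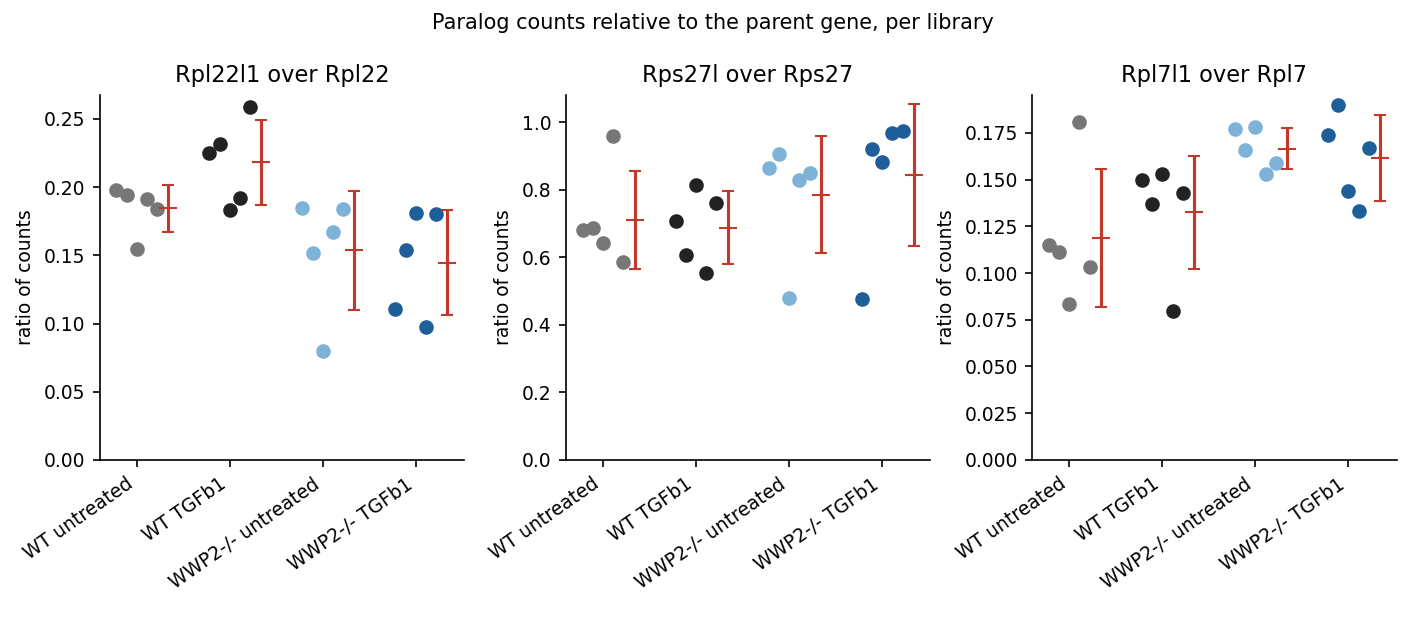
Counts of Rpl22l1, Rps27l and Rpl7l1 divided by those of Rpl22, Rps27 and Rpl7 (y axes, ratio of counts) in each library, by group (x axes), with replicates 1 to 5 from left to right; red bars give the mean and SD of 5 libraries. The Rpl22l1 ratio in WWP2-/- cells with TGFb1 (0.0976 to 0.181) lies below that in WT cells with TGFb1 (0.183 to 0.259).

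Of the remaining paralogs and parents, Rpl3 had log2 fold changes of -0.54 untreated and -0.46 with TGFb1, Rpl39 of -0.65 and -0.50, Rpl10 of -0.51 and -0.42, Rpl36a of -0.45 and -0.25, and Rps4x of -0.44 and -0.31. None passed the test in either state. Rps4l, annotated as a transcribed pseudogene and so not a member, was at a mean of 27.7 CPM (-0.06 and 0.19).

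Genes that work with the members were taken from lists. Of 22 further genes known for TOP messenger RNAs, such as the elongation factor Eef1a1, none was called in either genotype comparison, and the medians were -0.27 untreated and -0.24 with TGFb1. Of 48 tested factors of ribosome assembly, 7 had a log2 fold change below 0 untreated and 5 with TGFb1, against 42.0% and 44.8% of all genes, with medians of 0.20 and 0.21. One of them was called, Wdr12, which was higher in WWP2-/- than in WT cells with TGFb1 (0.38, SE 0.11, edgeR adjusted p = 0.0424). That 1 of 48 equals the 2.1% of all genes called higher. Assembly factors and ribosomal proteins thus had medians of opposite sign, a difference that was not tested.

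Of 20 regulators in the mTORC1 and MYC pathways, none was called untreated. In cells with TGFb1, 2 were called lower in WWP2-/- than in WT, against 3.96% of all genes. They were Rps6kb1, the kinase that phosphorylates the member Rps6, with 96 ± 24.4 CPM in WT and 55.3 ± 3.92 CPM in WWP2-/- (log2 fold change -0.94, SE 0.20, edgeR adjusted p = 0.0142), and Eif4ebp2, a repressor of cap-dependent initiation (-0.48, adjusted p = 0.0251). No member of the RNA polymerase I list (11 genes), of 35 initiation factors or of 6 elongation factors was called in either comparison. Of 77 mitochondrial ribosomal proteins, none was called untreated. In cells with TGFb1, 2 were called higher in WWP2-/- than in WT, against 2.1% of all genes. The larger increase was that of Mrpl38 (0.53, edgeR adjusted p = 0.0306). The 77 genes had medians of -0.04 untreated and 0.04 with TGFb1.

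Markers of cell types differed alongside these comparisons. Between WWP2-/- and WT with TGFb1, all 8 macrophage markers had a log2 fold change above 0 (median 2.52) and none was called, with a summed level of 54.3 to 449.5 CPM in WT and 70.1 to 3710 CPM in WWP2-/-. All 8 had an unadjusted p below 0.05 there, against 24.7% of all genes. Untreated, all 8 were below 0 (median -0.84), none at an unadjusted p below 0.05, with 141 to 4280 CPM in WT and 77.4 to 1967 CPM in WWP2-/-. Of 9 fibroblast markers, 8 were below 0 in both states (medians -1.73 and -2.25). At an unadjusted p below 0.05 there were 4 of the 9 untreated and 6 with TGFb1. In cells with TGFb1, the collagen genes Col1a1 and Col1a2 were called lower in WWP2-/- than in WT, Col1a2 by 2.63 on the log2 scale. The summed fibroblast level was 5078 to 30500 CPM in WT and 4382 to 11980 CPM in WWP2-/- libraries.

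Of 5 endothelial markers, Tek was called lower in WWP2-/- than in WT cells in both states, and Kdr only in cells with TGFb1. The other 3 (Pecam1, Cdh5 and Emcn) had log2 fold changes above 0 that did not pass. The endothelial median was 0.46 untreated and 0.40 with TGFb1 (summed level 25.5 to 164 CPM in WT and 6.21 to 151 CPM in WWP2-/-). Tubule markers summed to 17.2 to 213 CPM in WT and 7.11 to 474 CPM in WWP2-/-, and the proximal marker Slc34a1 had 2 counts over all libraries. Of 4 myofibroblast markers none was called (medians 0.85 untreated and 0.15 with TGFb1). Proliferation genes had medians of 1.12 untreated and -1.06 with TGFb1, with 5 of 10 at an unadjusted p below 0.05 in each state and none called. For TGFb1 against untreated in WT cells, all 8 macrophage markers were below 0 (median -2.48), each at an unadjusted p below 0.05, and none was called. In WWP2-/- cells they had a median of 0.74, and proliferation genes one of -1.80, with 9 of 10 at an unadjusted p below 0.05 and none called. For the interaction, the macrophage median was 3.33, with all 8 at an unadjusted p below 0.05, the proliferation median was -2.09, and none of either list was called. The part of these cell types and of proliferation in the members' levels was not tested.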

How the data were processed

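Counts per gene were deposited by the authors without normalization. Per their methods, poly-A libraries were read in pairs, aligned to GRCm38 with STAR and counted on exons with featureCounts. Versions, strand and the handling of reads that fit several places are not given in the sources used here. All 20 columns were assigned to samples by their labels. Positions, exon lengths and symbols came from GENCODE M21 on GRCm38, which names 51633 of the 51826 genes. Depth was between 47520759 and 73063697 counts, and counting error was small beside the spread between libraries.

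The 20407 genes reaching 5 counts in 5 or more libraries were normalized by TMM and tested with glmQLFit and glmQLFTest in edgeR 4.0.16 (R 4.3.3), with 4 groups in 1 fit and no covariate. A gene was called at an adjusted p (Benjamini-Hochberg over all genes tested) below 0.05. CPM uses library totals and log2 fold changes use TMM. SEs are the log2 fold change divided by the square root of F.

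Members and lists were chosen with earlier results of these data known. Named are the 5 largest increases and decreases called per comparison, the 3 lowest p where fewer than 3 were called, the 5 highest and lowest per kb, genes next to 10 CPM, paralogs and parents, Wwp2, Xist, and the largest called change per list. Genes outside this rule (Rps29, Rps16, Eif4ebp2, Col1a1, Kdr, Rpl38 among them) were named after their values were seen.

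Alternatives were DESeq2's size factors and Wald test (1.42.0), library totals, other filters, Xist as a covariate, the replicate number as a block, a length and GC trend removed, a fit of each pair of groups alone, a stricter adjusted p (0.01) and each library left out. Leaving out the Acta2-low libraries was chosen after seeing the data. The list of ribosomal proteins outside the symbol rule is not reported here.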

Additional observations from a re-analysis of the deposited data

Results flagged for a closer look

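Samples far from the others of their group were sought by the ratio of the gap to the group's whole range, with 0.71 as the critical value for 5 libraries. Chance alone sets a library apart in about 1 in 20 groups. WT TGFb1 replicate 4 stood apart on the high side for the share of counts held by the 79 genes (ratio 0.793) and for 66 of the 79 genes singly, against none in untreated WT. Among the genes named in the text, the ratio was highest for Rpl10 (0.958), Rpl30 (0.944), Rps15 (0.921), Rpl36a (0.920) and Rps26 (0.918). It was 0.862 for Rpl22, 0.861 for Rplp0, 0.859 for Rps4x, 0.836 for Rpl39, 0.835 for Rps25 and 0.811 for Rps27. It was 0.798 for Rplp1, 0.789 for Rps27a, 0.784 for Rpl7, 0.781 for Rpl19, 0.777 for Rps3a1 and 0.773 for Rpl3. It was 0.754 for Rps27l, 0.732 for Rpl35a, 0.729 for Rps15a and 0.722 for Rpl13a. The genes share this library, so the ratios are 1 observation repeated.

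Rpl22l1 stood apart on the low side in WWP2-/- untreated replicate 3 (ratio 0.758), one of the Acta2-low libraries, at 18.7 CPM against 35.8 to 41.3 CPM in the other four.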

How the results depend on the processing

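The count of members called with TGFb1, 1 as reported, was 0 with Xist as a covariate, 0 in a fit of only the groups compared and 0 at an adjusted p of 0.01. It ranged from 0 to 2 when single libraries were left out, being 0 without WT TGFb1 replicate 4 or WWP2-/- TGFb1 replicate 4, and 2 without WT TGFb1 replicate 3 (with Rps19) or WWP2-/- TGFb1 replicate 1 (with Rpl30). Without both Acta2-low libraries it was 3 (Rpl22l1, Rpl30 and Rps16). Untreated, 0 as reported, it was 1 without WT untreated replicate 4 and 1 by DESeq2's Wald test, and between 0 and 1 over all libraries left out. The shares of all genes called with libraries left out are not given here, so these counts have no background beside them. In the main fit the shares of all genes were 6.07% with TGFb1 and 0.725% untreated. Rpl22l1 with TGFb1 had an adjusted p below 0.05 in 27 of 31 alternatives (0.00185 to 0.0679), with log2 fold changes from -1.19 to -0.84. The stricter threshold of 0.01, at which it was not called, is not among these 31. Some of the 31 left out an untreated library, which is not in this comparison. Their log2 fold changes stayed between -1.05 and -1.03, so these fits say little about how firm the call is. Among the uncalled genes named, the log2 fold changes of Rpl13a, Rpl19, Rpl35a, Rplp0 and Rps15a with TGFb1 were above 0 both with Xist as a covariate and without WT TGFb1 replicate 4, that of Rps27l without that library and with library totals alone, and that of Rpl7l1 was below 0 without WWP2-/- TGFb1 replicate 1.

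The members' median ran from -0.50 to -0.03 with TGFb1, -0.59 to -0.22 untreated, -0.39 to 0.06 for TGFb1 in WT, -0.09 to 0.13 for TGFb1 in WWP2-/- and -0.03 to 0.44 for the interaction. Scaling by library totals alone moved the median of all genes with TGFb1 from 0.05 to 0.18. With the replicate number as a block, 1 member was called with TGFb1 (Rpl22l1, adjusted p = 0.0471) and 0 in the other comparisons, while the genes called fell from 1238 to 670 with TGFb1 and from 148 to 1 untreated. DESeq2's Wald test called 2672 genes with TGFb1, 747 untreated, 27 and 44 for TGFb1 in WT and WWP2-/- cells and 10 for the interaction. Deviations of same-numbered libraries correlated between -0.533 and 0.522 over all pairs of groups, and between -0.0135 and 0.446 for WT and WWP2-/- untreated (above 0.1 in 4 of 5), so the number was not treated as a pairing, and its part in the untreated calls was not tested further. The causes of these shifts were not tested.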
